A study of Mus musculus with 18 samples.

Results

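miR-103 and miR-107 are a pair of closely related miRNAs that are known in liver for their part in glucose and lipid metabolism. Their records were taken as every non-control spot whose name was mmu-miR-103 or mmu-miR-107, which gave 2 of the 576 names on the array and 4 of its 1712 probes. In the normalised signal neither miRNA changed significantly with benzo(a)pyrene (BaP) at any dose, and the largest shift was an increase of 6.88% in the signal of miR-107 at 50 mg/kg/day, with a 95% interval from -1.59% to 16.1%. Of the alternative ways of processing tried, the scanner's background-subtracted total gene signal alone called a change, an increase of miR-107 at 50 and 75 mg/kg/day. In the normalised signal the arrays showed a much larger split for miR-107 by slide than by dose, whereas miR-103, read from a single dim probe, showed no such split. In the total gene signal miR-103 also split by slide, in the opposite direction to miR-107.

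BaP is a polycyclic aromatic hydrocarbon that the liver converts to metabolites that bind DNA. Male Muta™Mouse, a transgenic strain (40.6) that carries bacterial lacZ as a mutation target in every cell, received BaP in olive oil by gavage for 28 days, and liver was taken 3 days after the last dose. The mice were 25 weeks old. The groups were vehicle control (olive oil alone, n = 3) and BaP at 25, 50 and 75 mg/kg/day (n = 5 each), with 1 array per animal, so that the P-values measure the spread between animals. Control animals beyond these 3 are not analysed here. The sample was part of the liver, a mixture of cells, and fewer cells of a type cannot be told apart from less of a miRNA per cell. Animals are numbered only in listing order.

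A miRNA is cut from a hairpin precursor, is loaded into a silencing complex, and pairs through its seed, a short stretch near its 5′ end, with messenger RNAs that it represses. miR-103 and miR-107 are encoded within genes for pantothenate kinase, the enzyme that starts the synthesis of coenzyme A. They are known to lower insulin sensitivity in liver and fat through caveolin-1, a membrane protein that stabilises the insulin receptor, and to repress Dicer, the enzyme that trims miRNA precursors. miR-107 and its host gene Pank1 have also been described as targets of p53, the transcription factor that responds to DNA damage.

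The mature sequences, credited to RefSeq (GRCm38.p6), are shown because they set what an array can tell apart. The array carries the older names without an arm, which were matched to the 3p arm. Capitals mark the seed, bases 2 to 8.
mmu-miR-103-3p: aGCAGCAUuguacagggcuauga
mmu-miR-107-3p: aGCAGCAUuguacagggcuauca
Both are 23 bases long and share 22 of them. The single difference is G22C, with the base of miR-103 first and positions counted from 1 at the 5′ end, so it lies outside the seed. The seed is thus the same in both, and of the 1679 mature names in the table these 2 alone (0.119%) carried it. The probe sequences are not given in the sources used here, and how far each probe also captured the other miRNA was not tested.

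Mature miR-103 comes from a pair of loci, and miR-107 from 1. The hairpins are printed 5′ to 3′ with the mature 3p arm in capitals.
Mir103-1: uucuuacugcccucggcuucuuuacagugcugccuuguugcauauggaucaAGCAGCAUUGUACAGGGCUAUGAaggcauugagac
Mir103-2: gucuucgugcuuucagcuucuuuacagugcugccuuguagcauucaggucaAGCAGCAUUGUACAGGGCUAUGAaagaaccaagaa
Mir107: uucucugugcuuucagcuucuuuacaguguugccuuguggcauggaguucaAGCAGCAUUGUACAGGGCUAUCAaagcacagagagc
Mir103-1 lies at chr11:35782396-35782481 on the plus strand, inside the span of Pank3 (chr11:35769495-35791285). Mir103-2 lies at chr2:131288052-131288137 on the plus strand, inside the span of Pank2 (chr2:131262008-131299188). Mir107 lies at chr19:34820687-34820773 on the minus strand, inside the span of Pank1 (chr19:34806935-34883423). Only gene spans were used here, so the exon or intron was not read from the annotation. Because the mature arm of both Mir103 loci is the same, the miR-103 signal cannot be divided between them.

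The 18 arrays came from 3 slides, of which slide 2 held no control. Slide 1 held 1 control and 2 animals of each dose, slide 2 held 2 animals each at 50 and 75 mg/kg/day, and slide 3 held 2 controls, 3 animals at 25 mg/kg/day and 1 at each higher dose. The number of names the scanner called detected was between 57 and 144 per array and was lowest in BaP 25 animals 4 and 5 (57 and 70). miR-122, the miRNA that marks hepatocytes, was present on all 18 arrays, whereas no marker listed for striated muscle or pancreas passed the presence filter. Of 5 mesenchymal markers only miR-199a-3p was tested, and it fell by 0.22 ± 0.048 (log2, SE) at 75 mg/kg/day (limma adjusted P = 0.00931). Its part in the results below was not tested. A probe passed when at least a share of 0.5 of its spots was well above background in at least a share of 0.8 of the arrays of any group, which left 69 miRNAs and 112 probes, and 3 of the 4 probes of the pair.

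Each probe was printed in 10 spots. Probe A_54_P1341, the brighter of the miR-103 probes, had a median spot signal between 70.3 and 126 scanner units before normalisation, which was 1.09 to 2.77 times the median negative control of the same array. It was well above background on 17 of 18 arrays, and the exception was BaP 25 animal 4, where 1 of 10 spots was. Probe A_54_P1342, also for miR-103, lay between 48.0 and 74.0 units, or 0.883 to 1.30 times the negative controls. It was well above background on 1 of 18 arrays and was left out, so the value of miR-103 rests on a single dim probe. Probe A_54_P1420 of miR-107 lay between 113 and 375 units and probe A_54_P1421 between 80.5 and 196 units, and both were well above background on all 18 arrays. Background was not subtracted in these values, so a change in a dim probe is smaller than the change in the RNA behind it.

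**Figure D1:**
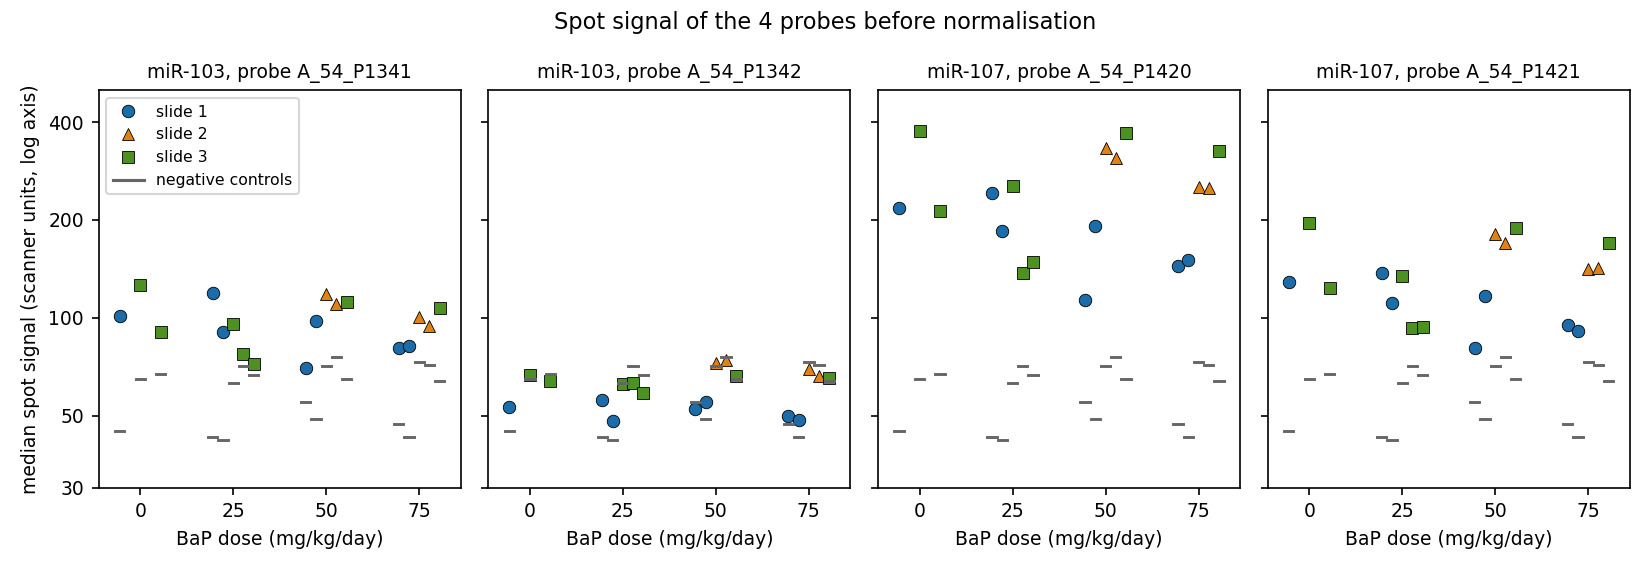
Median spot signal (scanner units, log axis) of the 4 probes against BaP dose, with 1 symbol per array, shaped by slide, and a grey line at the median negative control of that array. Probe A_54_P1342 lies at 0.883 to 1.30 times the negative controls, and both miR-107 probes lie above them on all 18 arrays.

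The normalised log2 signal of miR-103 in the vehicle controls was 6.55, 6.74 and 6.57 in animals 1 to 3. At 25 mg/kg/day it was 6.80, 6.62, 6.66, 6.61 and 6.56. Only animal 1 at this dose lay above all controls, and none lay below them. At 50 mg/kg/day the signal was 6.54, 6.65, 6.59, 6.55 and 6.65, and at 75 mg/kg/day it was 6.56, 6.57, 6.64, 6.55 and 6.62. These values lay within the range of the controls except for animal 1 at 50 mg/kg/day, just below it. The groups overlapped at every dose.

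The group means of miR-103 were 6.62 ± 0.11 in controls (SD, n = 3), 6.65 ± 0.09 at 25 mg/kg/day, 6.60 ± 0.05 at 50 mg/kg/day and 6.59 ± 0.04 at 75 mg/kg/day (SD, n = 5 each). In falling order this is 25, control, 50 and 75 mg/kg/day, and each step between neighbours was smaller than the SD of the groups beside it. Over all 18 arrays the log2 signal spanned a range of 0.26.

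For miR-107 the normalised log2 signal, a mean over both of its probes, was 7.07, 7.68 and 7.49 in control animals 1 to 3. At 25 mg/kg/day it was 7.08, 7.07, 7.62, 7.53 and 7.51. Control 1 and the first 2 animals at 25 mg/kg/day were on slide 1, and the others were on slide 3. At 50 mg/kg/day the signal was 7.20, 7.12, 7.56, 7.62 and 7.75, and at 75 mg/kg/day it was 7.04, 6.98, 7.61, 7.59 and 7.63. In each of these groups the lower 2 animals were on slide 1. The groups overlapped at every dose.

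The group means of miR-107 were 7.41 ± 0.31 in controls (SD, n = 3), 7.36 ± 0.26 at 25 mg/kg/day, 7.45 ± 0.28 at 50 mg/kg/day and 7.37 ± 0.33 at 75 mg/kg/day (SD, n = 5 each). The order was 50, control, 75 and 25 mg/kg/day, with no neighbours differing by as much as their SD. The log2 signal spanned a range of 0.78 over the 18 arrays. As background for this overlap, 4.35% of the 69 miRNAs had groups that did not overlap with controls at 25 mg/kg/day, 11.6% at 50 mg/kg/day and 13% at 75 mg/kg/day.

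**Figure D2:**
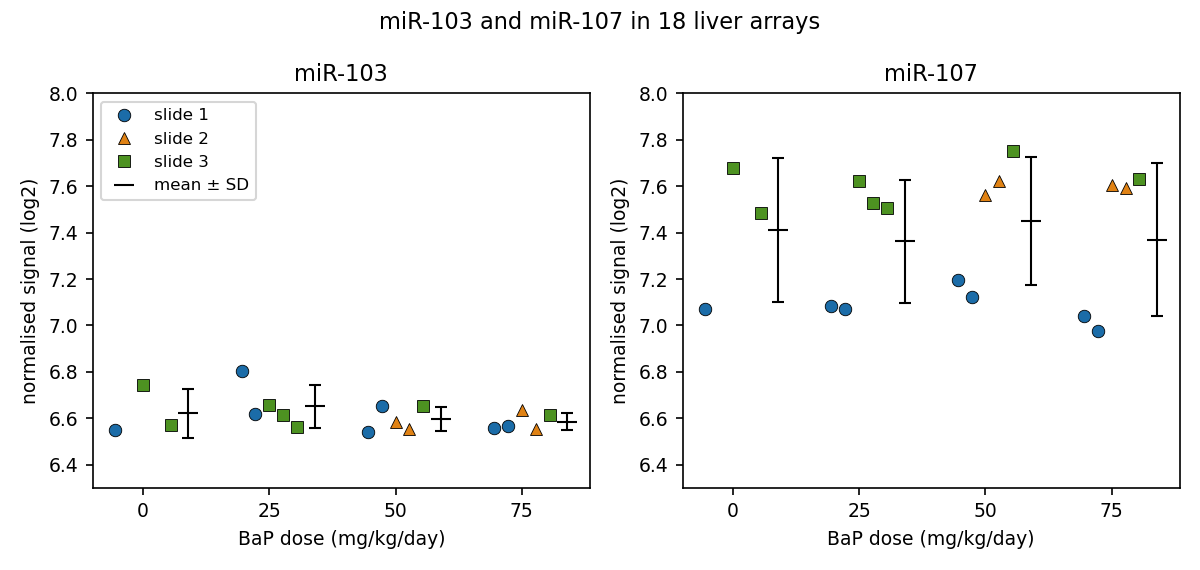
Normalised log2 signal of miR-103 and miR-107 against BaP dose, 1 symbol per array, shaped and coloured by slide, with the group mean and SD beside each group. At every dose miR-107 is lower on slide 1 (at most 7.20) than on slides 2 and 3 (at least 7.49), and miR-103 stays within 6.54 to 6.80.

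The slide carried most of the variation of miR-107. Its log2 signal ranged from 6.98 to 7.20 over the 7 arrays of slide 1, from 7.56 to 7.62 over the 4 of slide 2 and from 7.49 to 7.75 over the 7 of slide 3, with no overlap between slide 1 and the others. In the linear model with dose, the signal was higher by 0.49 ± 0.05 (SE) on slide 2 and by 0.54 ± 0.04 (SE) on slide 3 than on slide 1, while the median over all 69 miRNAs was 0.040 and 0.033. Differences between slides held 93.0% of the variance of miR-107 across arrays, the 6th highest share of the 69 miRNAs, whose median share was 54.9%. The same share was 7.10% for miR-103, which ranked 64th, and its shifts were -0.014 ± 0.052 and 0.0072 ± 0.044 (SE). Before normalisation the typical array had a median non-control signal of 44.0 scanner units on slide 1, 65.8 on slide 2 and 59.0 on slide 3. What part this level and the dimness of the miR-103 probe have in the contrast between the members was not tested. After slide means were removed, the SD between arrays was 0.076 for miR-107 and 0.073 for miR-103. The log2 total gene signal (described below) did split miR-103 by slide. It ran from 4.85 to 5.38 on slide 1, from 4.63 to 4.79 on slide 2 and from 4.08 to 4.67 on slide 3. Slide 1 was thus the highest for miR-103 on that scale, with no overlap, but the lowest for miR-107. The probes summed for miR-103 differed by array, however. On control 1 and BaP 25 animals 1 and 2, all on slide 1, the sum before scaling (44.5, 62.0 and 39.1) included probe A_54_P1342. Probe A_54_P1341 alone had 38.1, 51.9 and 33.3 there, and it made up the whole sum on every other array. What part this has in the miR-103 split was not tested. The slides were scanned on different dates, and slide and scan date cannot be told apart.

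**Figure D3:**
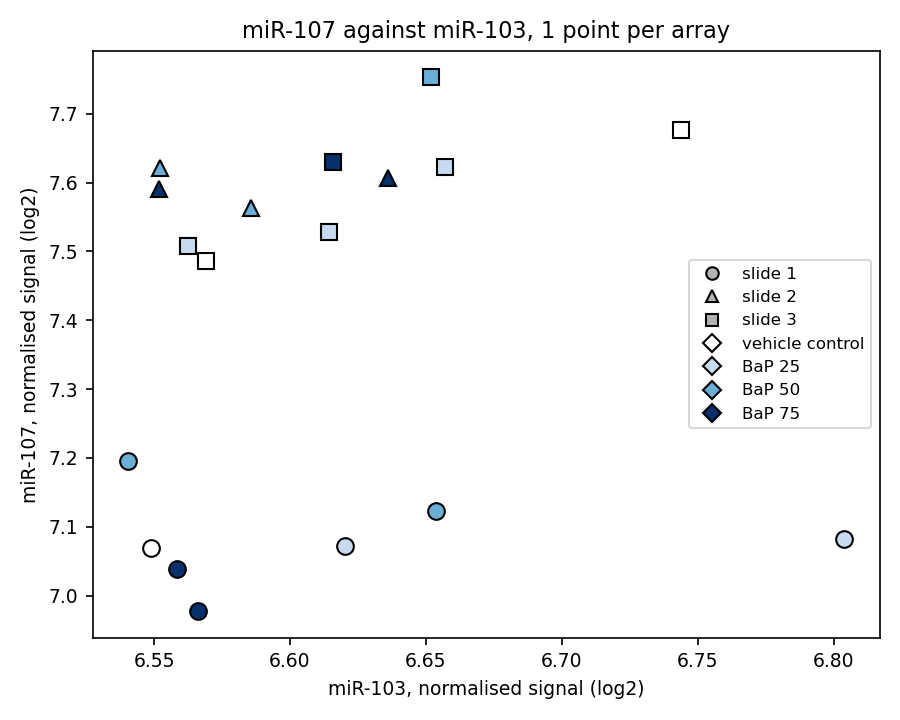
Normalised log2 signal of miR-107 against that of miR-103, with 1 symbol per array, shaped by slide and shaded by dose. The 7 slide 1 arrays form the lower group, at 7.20 or less for miR-107, and the doses are mixed within each group.

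With the slide as a block, limma gave no significant change for either member. Against vehicle, miR-103 differed by 0.031 ± 0.057 (log2, SE) at 25 mg/kg/day (adjusted P = 0.826), by -0.015 ± 0.062 at 50 mg/kg/day (adjusted P = 0.920) and by -0.026 ± 0.062 at 75 mg/kg/day (adjusted P = 0.900). The 95% intervals run from -5.98% to 11.1%, from -9.63% to 8.39% and from -10.3% to 7.56% of the signal. These bounds are for signal that still includes background.

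miR-107 differed from vehicle by -0.013 ± 0.051 (log2, SE) at 25 mg/kg/day (limma, adjusted P = 0.869), with an interval from -8.12% to 6.92%. At 50 mg/kg/day it differed by 0.096 ± 0.056 (adjusted P = 0.385), which placed it 18th of the 69 miRNAs by P. At 75 mg/kg/day the difference was 0.013 ± 0.056 (adjusted P = 0.967), with an interval from -7.07% to 9.62%. Neither of the 2 members was called at any dose, beside 0% of the 69 miRNAs at 25 mg/kg/day, 2.9% at 50 mg/kg/day and 5.8% at 75 mg/kg/day. Neither passed an unadjusted P of 0.05 at any dose, where 10.1%, 15.9% and 26.1% of the 69 did.

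The highest dose against the lowest gave -0.057 ± 0.054 (log2, SE) for miR-103 (limma, adjusted P = 0.678) and 0.026 ± 0.049 for miR-107 (adjusted P = 0.855), where 2.9% of all miRNAs were called. A straight line over dose had a slope per 25 mg/kg/day of -0.013 ± 0.019 for miR-103 (adjusted P = 0.701) and 0.0090 ± 0.020 for miR-107 (adjusted P = 0.822). In that test 10.1% of the miRNAs passed, and neither member was among them.

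Each dose was also set against the controls of the same slide. On slide 1 the signal of miR-107 at 50 mg/kg/day was 0.090 higher than in the control, and on slide 3 it was 0.17 higher than the mean of both controls. All 3 animals at this dose that shared a slide with a control lay above every control of that slide, as did those of 11.6% of the 69 miRNAs. At 75 mg/kg/day the difference was -0.061 on slide 1 and 0.048 on slide 3, and at 25 mg/kg/day it was 0.0069 and -0.029. miR-103 at 25 mg/kg/day was 0.16 higher on slide 1, against its 1 control there, and differed by -0.045 on slide 3.

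Each probe was also fitted on its own. At 50 mg/kg/day probe A_54_P1420 differed from vehicle by 0.13 ± 0.059 (log2, SE), with an unadjusted limma P of 0.0478 and an adjusted P of 0.207 over the 112 probes. Probe A_54_P1421 differed by 0.064 ± 0.057 (adjusted P = 0.556). At 75 mg/kg/day the values were 0.030 ± 0.059 and -0.0028 ± 0.057 (adjusted P = 0.803 and 0.999). None of the 3 probes of the pair was called at 25, 50 or 75 mg/kg/day, where 0%, 2.68% and 7.14% of the probes were. Once slide means were removed, the log2 signals of the miR-107 probes had r = 0.90 across 18 arrays and those of the miR-103 probes r = 0.73. Between a probe of one miRNA and a probe of the other, r ranged from 0.095 to 0.38.

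An exact two-sided permutation test of the group means, without the slide, gave P = 0.714, 0.696 and 0.536 for miR-103 and P = 0.679, 0.786 and 0.786 for miR-107 at 25, 50 and 75 mg/kg/day. With 9 such tests, including those of the difference between the members, every adjusted P of the members was 0.884. The smallest P that 3 against 5 animals allows is 0.0179. Slide held 93.0% of the variance of miR-107 and slide 2 held no control, so for miR-107 these tests mix slide with dose. When labels were exchanged within slides only, the exact permutation P was 0.8, 0.889 and 1 for miR-103 and 0.7, 0.222 and 1 for miR-107, where the smallest possible values are 0.0333 at 25 mg/kg/day and 0.111 at the higher doses, so the latter cannot pass the threshold of 0.05.

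Whether both members changed unequally was tested on the difference of their log2 signals on each array. This difference also holds the brightness of the probes, so only its change between groups was read. Relative to vehicle the gap shifted by -0.080 at 25 mg/kg/day (exact permutation P = 0.607), by 0.064 at 50 mg/kg/day (P = 0.679) and by -0.0074 at 75 mg/kg/day (P = 0.946), and after adjustment over the 9 tests P was 0.884, 0.884 and 0.946. The control values were 0.52, 0.93 and 0.92, and the low one was from slide 1. These tests left the slide out, so the shifts mix slide with dose. With labels exchanged within slides only, the gap shifted by -0.045 at 25 mg/kg/day (exact permutation P = 0.6) and by 0.11 at 50 mg/kg/day (P = 0.444). At 75 mg/kg/day the shift was 0.0067. At the higher doses the smallest possible P is 0.111, which cannot pass the threshold.

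The pair followed each other only loosely across arrays. With slide means removed, the log2 signals of miR-103 and miR-107 had r = 0.33 over 18 arrays, with 0.034 on slide 1 and 0.73 on slide 3 (7 arrays each). By this measure miR-107 ranked 20th among the other miRNAs for likeness to miR-103. The 3 miRNAs most like miR-103 were miR-26a (r = 0.81), miR-16 (r = 0.74) and miR-30a (r = 0.69). Their Spearman rank correlations were lower, at 0.459, 0.556 and 0.459, and that of miR-107 with miR-103 was 0.455. miR-103 and these 3 miRNAs each had their highest signal on the array of BaP 25 animal 1 (6.80, 7.18, 7.01 and 7.13). Those most like miR-107 were miR-28 (r = 0.70), miR-29c (r = 0.65) and miR-331-3p (r = 0.58), with rank correlations of 0.701, 0.585 and 0.616. All come from the same arrays and normalisation, so the correlations are a description.

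miR-103 and miR-107 belong to a wider group, named miR-15/miR-107, whose members carry AGCAGC near the 5′ end and include regulators of the cell cycle. The mature forms of the other members are shown, again with bases 2 to 8 in capitals, because they have the motif at a different place from the pair.
mmu-miR-15a-5p: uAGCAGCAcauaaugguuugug
mmu-miR-15b-5p: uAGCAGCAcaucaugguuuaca
mmu-miR-16-5p: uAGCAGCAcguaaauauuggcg
mmu-miR-195a-5p: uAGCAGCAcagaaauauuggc
mmu-miR-322-5p: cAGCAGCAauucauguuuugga
mmu-miR-497a-5p: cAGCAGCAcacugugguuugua
mmu-miR-503-5p: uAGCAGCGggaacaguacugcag
AGCAGC starts at base 1 in miR-103 and miR-107 and at base 2 in these 7. It was found within bases 1 to 8, on the miRNA strand, in 13 of 1679 mature names (0.774%).

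Of the 9 listed members of the group, 8 were tested, and miR-503 did not pass the presence filter. None of the 8 was called against vehicle at any dose, beside 0%, 2.9% and 5.8% of all 69 miRNAs at 25, 50 and 75 mg/kg/day. Over the 8, the log2 changes at 75 mg/kg/day ranged from -0.20 to 0.16 with a median of -0.015, beside a median of -0.030 over all 69 miRNAs. The ends of this range were miR-322 (-0.20 ± 0.065, SE, limma adjusted P = 0.0669) and miR-15b (0.16 ± 0.049, adjusted P = 0.0610). miR-15a differed by -0.13 ± 0.073 (adjusted P = 0.289) and miR-16 by -0.081 ± 0.081 (adjusted P = 0.519). In the trend over dose, miR-15b rose by 0.059 ± 0.015 per 25 mg/kg/day (adjusted P = 0.0166), the 1 call among the 8, beside 10.1% of all 69 miRNAs called in the trend.

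**Figure D4:**
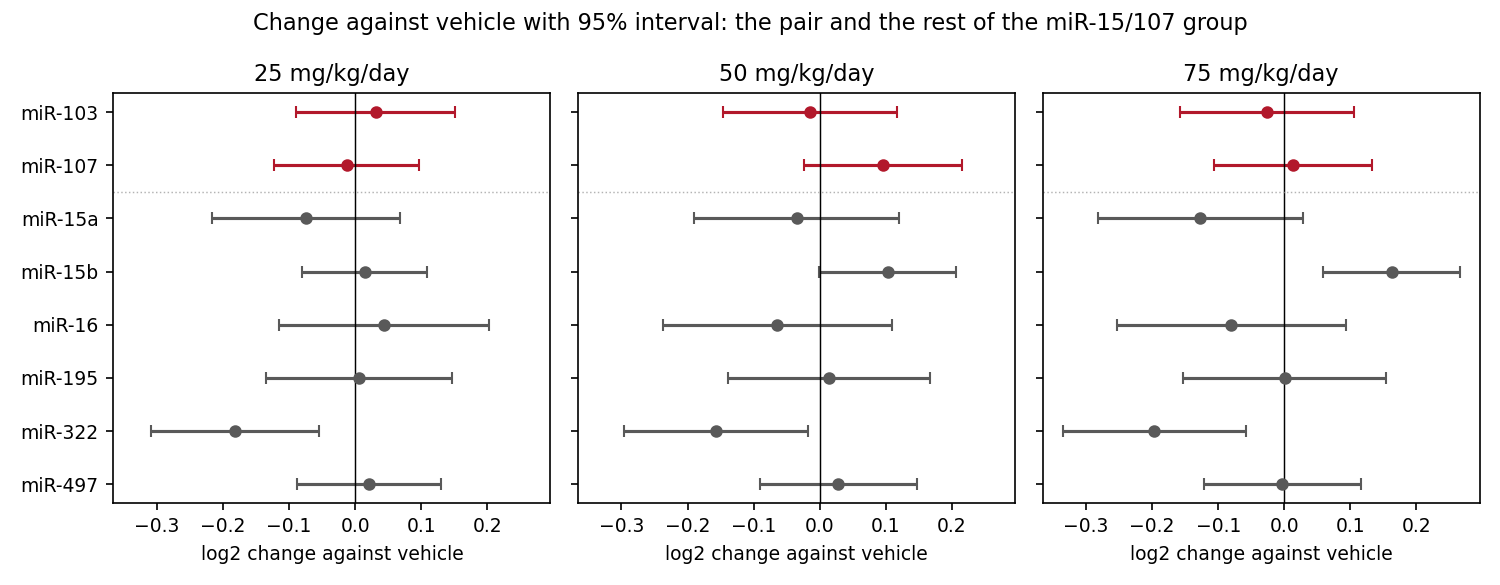
Log2 change against vehicle at each dose for miR-103 and miR-107 (red) and the 6 other tested members of the miR-15/miR-107 group (grey), with bars for the 95% interval from limma before adjustment over miRNAs. Every interval of the pair includes 0, and at 75 mg/kg/day the pair lies between miR-322 (-0.20) and miR-15b (0.16).

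Among 27 miRNAs listed for liver glucose and lipid metabolism, the pair included, 22 were tested. None was called at 25 mg/kg/day, and at both higher doses 1 was higher and 1 lower, beside 0%, 2.9% and 5.8% of all 69 miRNAs called at the 3 doses. The higher one was miR-34a, a p53 target, at 2.07 ± 0.18 (log2, SE) at 75 mg/kg/day (limma adjusted P = 5.4e-07), and the lower was let-7c, of the let-7 family of growth regulators, at -0.27 ± 0.054 (adjusted P = 0.00533). No miRNA was called lower at 50 mg/kg/day under 12 of 16 alternatives, or at 75 mg/kg/day under 4 of 16, so the call of let-7c was lost in these. miR-26b differed by -0.31 ± 0.10 (adjusted P = 0.0669), miR-148a by -0.22 ± 0.070 (adjusted P = 0.0669) and let-7b by -0.19 ± 0.073 (adjusted P = 0.0926). The median over the 22 was -0.087 at 75 mg/kg/day. Of 14 miRNAs listed for a link to p53, which include miR-107, 6 were tested and only miR-34a was called. The other 5 ranged from -0.13 for miR-15a to 0.025 for miR-194 at 75 mg/kg/day.

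The call of miR-107 changed under 1 alternative. It was the scanner's total gene signal, which sums background-subtracted probe signals. In place of the loess, each array was scaled here to its 75th percentile over the names detected on all 18 arrays. On this scale miR-107 was called higher at 50 mg/kg/day (0.27 ± 0.069, log2, SE, limma adjusted P = 0.0290) and at 75 mg/kg/day (0.28 ± 0.069, adjusted P = 0.0172). Beside this, 5.8% and 13% of the 69 miRNAs were called in these comparisons. On this scale the log2 values on slide 1 were 6.85 in the control, 7.10 and 6.95 at 25 mg/kg/day, 7.11 and 7.14 at 50 mg/kg/day and 7.18 and 7.04 at 75 mg/kg/day. On slide 2, which held no control, they were 7.74 and 7.77 at 50 mg/kg/day and 7.79 and 7.86 at 75 mg/kg/day. On slide 3 the controls were 7.46 and 7.30, and the animals were at 7.44, 7.51 and 7.37 at 25 mg/kg/day, 7.73 at 50 mg/kg/day and 7.65 at 75 mg/kg/day. The 3 animals of each higher dose that shared a slide with a control were above the controls of that slide. What share of all 69 miRNAs had this pattern on this scale was not computed, so it is not read as particular to miR-107. The median of all 69 miRNAs moved upward on this scale as well, by 0.13 and 0.18, and relative to that median miR-107 was higher by 0.14 and 0.10. The slope of miR-107 was 0.093 ± 0.023 per 25 mg/kg/day (adjusted P = 0.00949), in a test that 18.8% of the miRNAs passed. The median slope of all 69 miRNAs was 0.070 on this scale, and relative to it miR-107 was higher by 0.023. With each of the 18 arrays left out in turn on this scale, the call was lost at 50 mg/kg/day without control 1 or 3, without BaP 50 animal 1, 2 or 5, or without BaP 75 animal 5 (adjusted P up to 0.205), at 75 mg/kg/day without control 1 or 3 or BaP 75 animal 5 (adjusted P up to 0.0894), and never for the slope (adjusted P up to 0.0494). The change itself stayed between 0.22 and 0.31 at 50 mg/kg/day and between 0.24 and 0.32 at 75 mg/kg/day. In the deposited table of log2 values miR-107 had the opposite sign, with -0.032 at 50 mg/kg/day (adjusted P = 0.883) and -0.23 at 75 mg/kg/day (adjusted P = 0.179), beside medians of -0.064 and -0.11. Among the other alternatives that correct for background, the processed signal gave 0.23 at 50 mg/kg/day (adjusted P = 0.392) and normexp gave 0.097 (adjusted P = 0.373). At 75 mg/kg/day they gave 0.15 (adjusted P = 0.489) and 0.022 (adjusted P = 0.823). The total gene signal differs in background, probe summing and scaling at once, and the cause was not tested. miR-103 was called under none of the alternatives tried. Its total gene signal included probe A_54_P1342 on control 1 and BaP 25 animals 1 and 2 but on no array of the higher doses. How far this altered its changes on that scale was not tested.

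**Figure D5:**
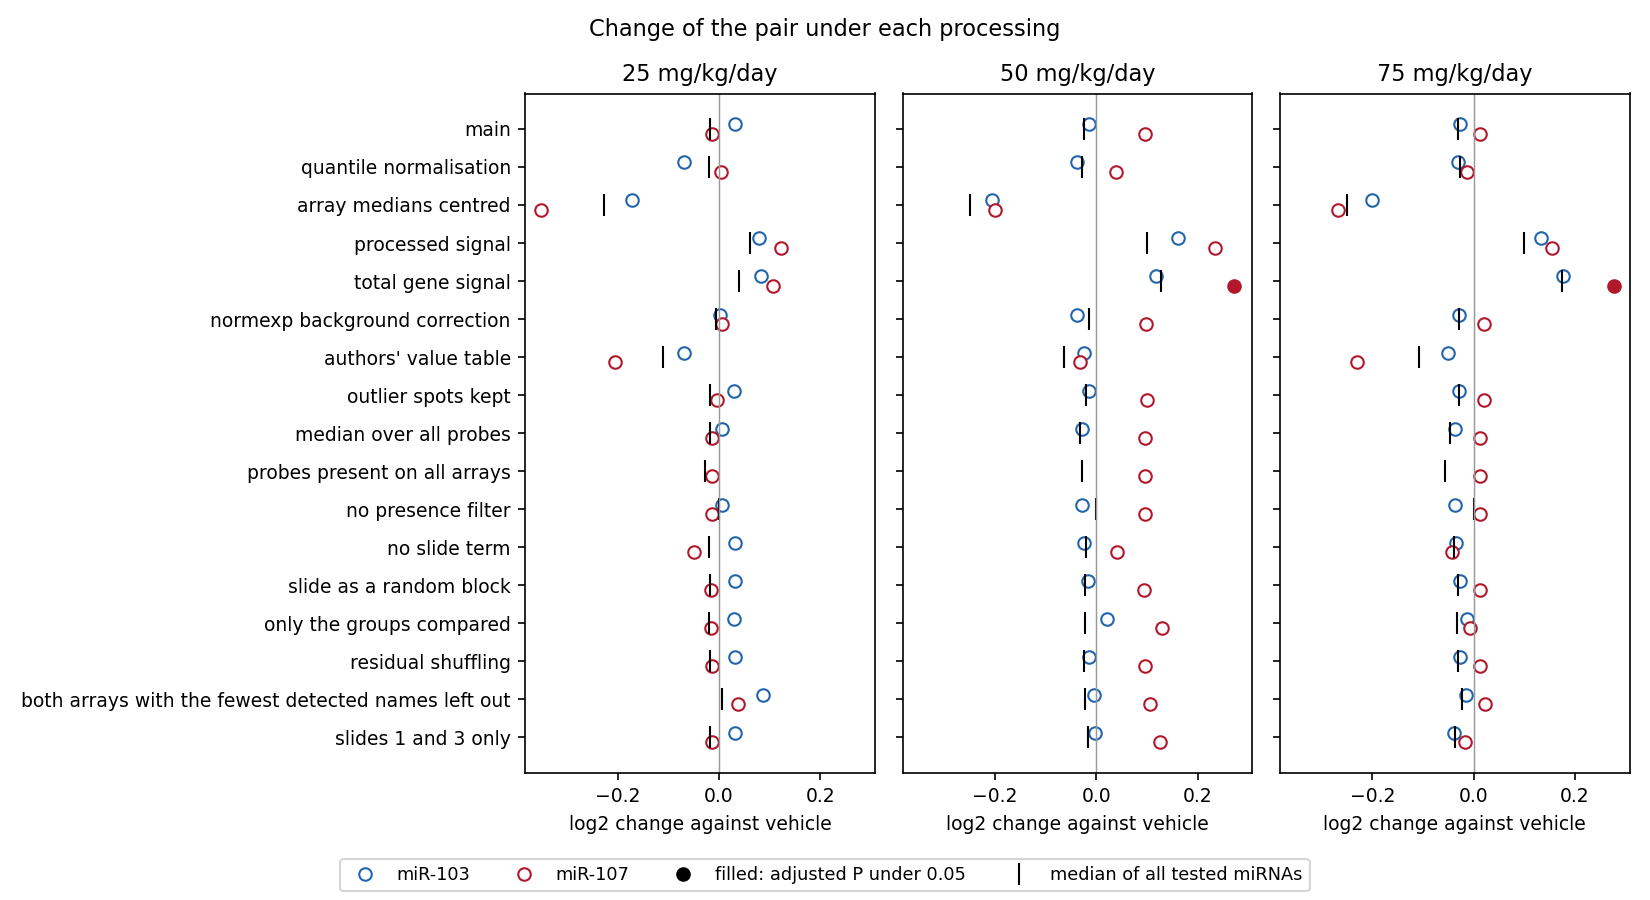
Log2 change against vehicle of miR-103 (blue) and miR-107 (red) at each dose as processed here (top row) and each alternative, with filled symbols for an adjusted P under 0.05 and a black tick at the median of all tested miRNAs. The filled symbols are miR-107 from the total gene signal at 50 and 75 mg/kg/day (0.27 and 0.28), and miR-103 has no value where only probes present on all arrays were kept.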

How the data were processed

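miRNA was measured in 18 liver samples on 1-colour Agilent mouse arrays. The authors labelled small-RNA-containing total RNA with cyanine 3 and extracted images with Agilent Feature Extraction 10.7.3.1, and they deposited linear intensities of each spot before any normalisation. They also deposited a table of 1 log2 value per miRNA and array, used as an alternative. Its scale was read from its correlation with log2 median signal (0.991 to 1.00 over 574 names), and its centring is unknown (column medians 5.74 to 5.76).

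After the methods of the study, median signals were taken without background subtraction, log2 transformed and normalised by cyclic loess (limma 3.58.1, R 4.3.3), the median over spots was taken, and the slide was a block. Outlier spots were removed, and present probes of a miRNA were averaged. Groups came from the labelled dose. Each comparison was fitted over all 18 arrays, with Benjamini-Hochberg adjustment over 69 miRNAs (or 112 probes) and a threshold of 0.05. limma replaced the shuffling test of the study, which was run as an alternative with 100 shuffles. Exact permutation tests were added. Alternatives covered the normalisation, background correction, outlier spots, probe summary, presence filter, slide term, samples fitted and each array left out. The code was tested on simulated data. The number of arrays limits the precision. In 7 files 6 other probes carry a different name, and the names of the other files were used.

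Members and lists were chosen with earlier results of these data known. Named are the pair with every probe, the 3 miRNAs most correlated with each, and up to 5 of each list with the largest absolute change at 75 mg/kg/day. Markers were listed for hepatocytes (1 of 1 tested), erythroid cells (2 of 3), leukocytes (1 of 5), endothelium (1 of 2), mesenchymal cells (1 of 5), striated muscle (0 of 3) and pancreas (0 of 3).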

Additional observations from a re-analysis of the deposited data

Results flagged for a closer look

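Probe A_54_P1342, the dimmer probe of miR-103, was left out of the values reported for miR-103 and entered only the alternatives with the median over all probes or no presence filter, which gave 0.0059 for miR-103 at 25 mg/kg/day in place of 0.031. On the array of BaP 25 animal 1 all 10 of its spots were well above background, beside at most 1 spot in the 3 controls. Its normalised log2 signal there was 6.17, with 6.03, 5.95 and 5.89 in the controls, and the same array had the highest signal of the other miR-103 probe (6.80) and the most detected names of all arrays (144). What part the number of detected names has in it was not tested. No value of the pair, its probes or their difference stood apart from its group in Dixon's test over 21 groups of 5. Chance would mark about 1 in 20 of such groups if none were split by slide. The slide was left in, and it split every group of miR-107, its probes and the difference, where a single value can hardly be marked. The groups of probe A_54_P1341 repeat those of miR-103. The test therefore says little beyond the miR-103 probes.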

How the results depend on the processing

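No call of miR-103 changed under any of its alternatives, and for miR-107 only the total gene signal changed calls (0.27 at 50 and 0.28 at 75 mg/kg/day, 0.093 per 25 mg/kg/day in the trend). The other shifts below turned the sign of small values that no test called, and their cause was not tested. Array medians centred gave -0.17 for miR-103 at 25 mg/kg/day and, for miR-107, -0.20 at 50, -0.27 at 75 mg/kg/day and -0.058 per step, where the median of all 69 miRNAs also fell by 0.23 to 0.25 at the 3 doses. The deposited table gave -0.069 for miR-103 at 25, 0.019 for miR-103 at 75 against 25, and, for miR-107, -0.032 at 50, -0.23 at 75, -0.026 at 75 against 25 and -0.058 per step. The processed signal gave 0.12 for miR-107 at 25 and, for miR-103, 0.16 at 50, 0.13 at 75, 0.054 at 75 against 25 and 0.042 per step, with a median of all miRNAs between 0.062 and 0.10 at the 3 doses. The total gene signal gave 0.11 for miR-107 at 25 and, for miR-103, 0.12 at 50, 0.18 at 75, 0.093 at 75 against 25 and 0.056 per step. The miR-103 values on that scale sum a different set of probes on control 1 and BaP 25 animals 1 and 2. Quantile normalisation gave, for miR-103, -0.069 at 25 (its probe likewise, -0.069) and 0.038 at 75 against 25, and, for miR-107, 0.0050 at 25, -0.012 at 75, -0.017 at 75 against 25 and -0.0039 per step, with probe A_54_P1421 at -0.0010 at 50. Normexp background correction gave 0.0053 for miR-107 at 25. Outlier spots kept gave 0.014 for probe A_54_P1421 at 75. No slide term gave, for miR-107, -0.042 at 75 and -0.0027 per step, and for probe A_54_P1420 -0.033 at 25 and -0.035 at 75. Only the groups compared gave 0.022 for miR-103 at 50 and, for miR-107, -0.0069 at 75 and -0.0062 at 75 against 25.

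Alternatives chosen after seeing the data were leaving out both arrays with the fewest detected names, which gave 0.037 for miR-107 at 25 and -0.014 at 75 against 25, slides 1 and 3 only, which gave -0.016 for miR-107 at 75 and -0.0035 at 75 against 25, the total gene signal with each array left out (given above) and shuffles within slides, which gave 0.022 for miR-103 at 50 and 0.0067 for the gap between members at 75. Without both arrays with the fewest detected names, miR-103 kept its sign but moved from 0.031 to 0.086 at 25 (limma adjusted P = 0.678). At 75 against 25 it moved from -0.057 to -0.10 (limma adjusted P = 0.352). The gap between members was 0.036 at 25 with quantile normalisation and -0.023 at 50 in the deposited table. From the total gene signal, where the miR-103 probes summed differ by array, it was 0.015 at 75. With the slide as a random block, residual shuffling, the median over all probes and no presence filter, the 5 comparisons of each member kept their sign and call. Probes present on all arrays gave no value for miR-103.

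With each array left out in turn no member was called. The change of miR-103 lay between -0.013 and 0.094 at 25, -0.066 and 0.042 at 50, -0.077 and 0.031 at 75, -0.078 and -0.00052 at 75 against 25 and -0.028 and -0.0032 per step. That of miR-107 lay between -0.066 and 0.032 at 25, 0.047 and 0.14 at 50, -0.036 and 0.054 at 75, 0.011 and 0.056 at 75 against 25 and -0.0010 and 0.022 per step. Probe A_54_P1341 followed miR-103 (-0.013 to 0.094, -0.066 to 0.042 and -0.077 to 0.031). Probe A_54_P1420 lay between -0.045 and 0.052 at 25 and -0.021 and 0.068 at 75, and probe A_54_P1421 between -0.088 and 0.011 at 25 and -0.051 and 0.040 at 75. The gap between members lay between -0.21 and 0.029 at 25, -0.071 and 0.16 at 50 and -0.14 and 0.085 at 75. Calls were also counted over all miRNAs tested. These were 69 names, except 42 where only probes present on all arrays were kept and 576 with no presence filter. The calls at 25, 50 and 75 mg/kg/day numbered 0, 2 and 4 here. They were 0 to 7, 0 to 5 and 1 to 9 under the alternatives and 0 to 1, 1 to 4 and 1 to 9 with 1 array left out. Those of 75 against 25 and of the trend, 2 and 7 here, were 0 to 3 and 1 to 13, and 1 to 7 and 4 to 11 with 1 array left out.

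No paired analysis was possible because the labels give no replicate number that groups share, and animals were numbered in listing order. The number of arrays and the low signal of miR-103, at 1.09 to 2.77 times the negative controls, limit the precision.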
